A study of Caenorhabditis elegans with 2 samples.

Results

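The genes zip-2, cebp-2, irg-1 and irg-2 of Caenorhabditis elegans were examined for binding of CEBP-1, a transcription factor of the C/EBP family of basic leucine zipper (bZIP) proteins. They were taken by name and are 4 of the 19973 protein-coding genes annotated on the nuclear chromosomes. For each gene, every chromatin immunoprecipitation sequencing (ChIP-seq) peak was collected whose summit lay between 2 kb upstream of an annotated 5′ end and the end of the gene, a stretch called the gene window. The animals were young adults, 62 hours old and of strain RW12290, grown from starved first-stage larvae obtained by bleaching. They carried st12290[cebp-1::TY1::EGFP::3xFLAG], an insertion made by CRISPR that tags the endogenous cebp-1 gene. There was 1 group, of 2 biological replicates prepared from whole animals, so cell types cannot be told apart. The labels name no infection and no toxin, and no untagged or input sample was analysed here. In the labels cebp-1 is entered as the antibody, whereas the free text describes precipitation with an antibody to GFP.

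ZIP-2 is a bZIP transcription factor that C. elegans uses to sense disrupted translation. When a bacterial toxin such as exotoxin A of Pseudomonas aeruginosa blocks translation in the intestine, ZIP-2 is made from an mRNA that carries upstream open reading frames, and it induces infection response genes. CEBP-2 is a small C/EBP-type bZIP protein that acts with ZIP-2 in this induction, and irg-1 and irg-2 are infection response genes used as its readouts. CEBP-1, the protein profiled here, is a separate C/EBP protein with roles in stress, immunity and axon regeneration. The question put to the data was where this other bZIP protein sat on the regulators and targets of the ZIP-2 response, and how strongly.

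CEBP-1 peaks were strong at zip-2 and irg-2 and weak at irg-1 and cebp-2. The series has 2 thresholded peak lists, which keep peaks with a global irreproducible discovery rate (IDR) of at most 0.01. IDR estimates how likely a peak at a given strength is to fail to repeat in the paired list. The conservative list held 1546 peaks and the optimal list 1969, and each replicate had a list of its own, with 1488 peaks in replicate 1 and 797 in replicate 2. In the conservative list, summits fell in the windows of zip-2 and irg-2, which makes 2 of the 4 genes, and the same was true of 7.62% of all protein-coding genes. The optimal list added irg-1 and so covered 3 of the 4 genes, with 9.49% of all genes covered. Replicate 1 covered the same 3 genes against a share of 8.02% of all genes, and replicate 2 covered zip-2 and irg-2 against 4.48% of all genes. cebp-2 had no summit in any of the 4 thresholded lists.

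Peak strength is given as the authors' signal value, a score for each peak whose scaling is not stated, so ranks within a list are the firmer measure. Means, SDs and ratios of signal over the 2 replicates are given as a description, since part of any difference between them may lie in the scaling of the lists. Read depth is unknown. Each thresholded list was accompanied by a ranked list that also holds the peaks that failed the threshold, with 50793 peaks for the conservative list, 33933 for replicate 1 and 39805 for replicate 2. The median signal was 115.5 among the conservative peaks and 29.98 among the ranked peaks behind them. A ranked peak alone is common, because 77.7% of all protein-coding genes had at least 1 ranked summit in their window. The strongest ranked signal per gene had a median of 42.2 over all genes with a ranked summit. The median over the 4 genes was 336, a midpoint between 80.5 at irg-1 and 591.6 at zip-2 that lies near none of them.

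The DNA under the peaks is shown because the strongest peaks of zip-2 and irg-2 were close in signal but held different sequence words. All stretches are printed 5′ to 3′ on the plus strand, which is the coding strand of all 3 genes, from the RefSeq genome of WBcel235, the same build as ce11. Capitals mark matches to TTGCNNAA or TTGCATCA on either strand, so that TTTCGCAA is TTGCGAAA read on the minus strand and TTGTGCAA is TTGCACAA. The intronic zip-2 peak covers chrIII:833749-834009 whole, and its summit is base 132 of the 261 printed. The second zip-2 stretch, chrIII:832813-832981, is the part of a weaker peak that lies before the first 5′ end of zip-2. The irg-1 stretch, chrV:3523318-3523586, is the part of its peak upstream of irg-1. The irg-2 stretch, chrV:4042022-4042180, is the complete gap between irg-2 and its divergent neighbour C49G7.10, with the summit at base 44.
zip-2 intronic peak: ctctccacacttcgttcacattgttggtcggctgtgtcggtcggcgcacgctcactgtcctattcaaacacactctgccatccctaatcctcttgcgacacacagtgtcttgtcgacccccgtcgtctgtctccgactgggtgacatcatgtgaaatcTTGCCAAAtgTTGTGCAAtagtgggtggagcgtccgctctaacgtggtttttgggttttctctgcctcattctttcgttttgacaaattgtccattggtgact
zip-2 peak at the first 5′ end: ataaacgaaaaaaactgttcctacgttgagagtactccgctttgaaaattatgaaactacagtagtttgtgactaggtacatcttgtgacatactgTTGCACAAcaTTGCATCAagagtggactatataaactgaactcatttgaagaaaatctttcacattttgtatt
irg-1 upstream peak: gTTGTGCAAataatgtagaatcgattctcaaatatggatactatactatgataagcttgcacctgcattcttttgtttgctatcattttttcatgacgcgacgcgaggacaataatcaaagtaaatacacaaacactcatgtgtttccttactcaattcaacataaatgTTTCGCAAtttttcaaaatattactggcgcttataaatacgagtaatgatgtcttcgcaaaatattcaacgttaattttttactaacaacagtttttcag
irg-2 upstream peak: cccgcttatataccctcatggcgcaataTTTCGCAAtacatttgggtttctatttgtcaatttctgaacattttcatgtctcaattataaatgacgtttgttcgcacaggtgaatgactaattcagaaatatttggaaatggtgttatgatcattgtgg
The zip-2 intronic stretch had a G and C content of 50.6%, the other zip-2 stretch 33.1%, the irg-1 stretch 31.6% and the irg-2 stretch 35.2%. The complete word TTGCGAAA occurs at irg-1 and irg-2 and in neither zip-2 stretch.

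Among the regulators, zip-2 (WBGene00019327) lies on the plus strand of chromosome III from 832982 to 835814 and has 3 annotated transcripts with different 5′ ends, at 832982, 834088 and 834305. Its strongest peak had its summit at 833880, inside the first intron of the longest transcript and 208 bp upstream of the second 5′ end. The signal of this peak was 591.6 in the series list, 305.5 in replicate 1 and 276.2 in replicate 2. It stood 42nd of 1546 conservative peaks, 51st of 1488 in replicate 1 and 32nd of 797 in replicate 2, so both replicates placed it high. The replicate mean was 291 ± 20.7 (SD, n = 2). Its global IDR was 1e-05 in all 4 lists, the lowest value the lists hold, which 205 of the 1546 conservative peaks (13.3%) shared.

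The summit of replicate 1 lay 228 bp and that of replicate 2 lay 207 bp upstream of the second 5′ end of zip-2. The 21 bp between them compare with a median gap of 22 bp over the 1525 conservative peaks that had a ranked peak in each replicate. The next protein-coding 5′ end, that of ceeh-1, which encodes an epoxide hydrolase and runs away from zip-2 on the minus strand, was 1603 bp from the series summit. The window of ceeh-1 therefore also contains this peak.

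A second, weaker zip-2 peak had its summit at 832965, 17 bp upstream of the first 5′ end. Its signal was 83.5 in the series lists and 56.4 in replicate 1, while the ranked list of replicate 2 had no summit there. It passed the threshold in the optimal list, at rank 1407 of 1969 with a global IDR of 0.00189, and in replicate 1, at rank 1103 of 1488. In the ranked list behind the conservative list its global IDR was 0.0334, and it did not pass. The 2 zip-2 peaks thus differed both in strength and in how the replicates listed them. The conservative ranked list held 2 further zip-2 summits, with signals of 51.3 in a coding exon and 47.9 at 816 bp upstream of the first 5′ end, and neither passed a threshold in any list.

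**Figure D1:**
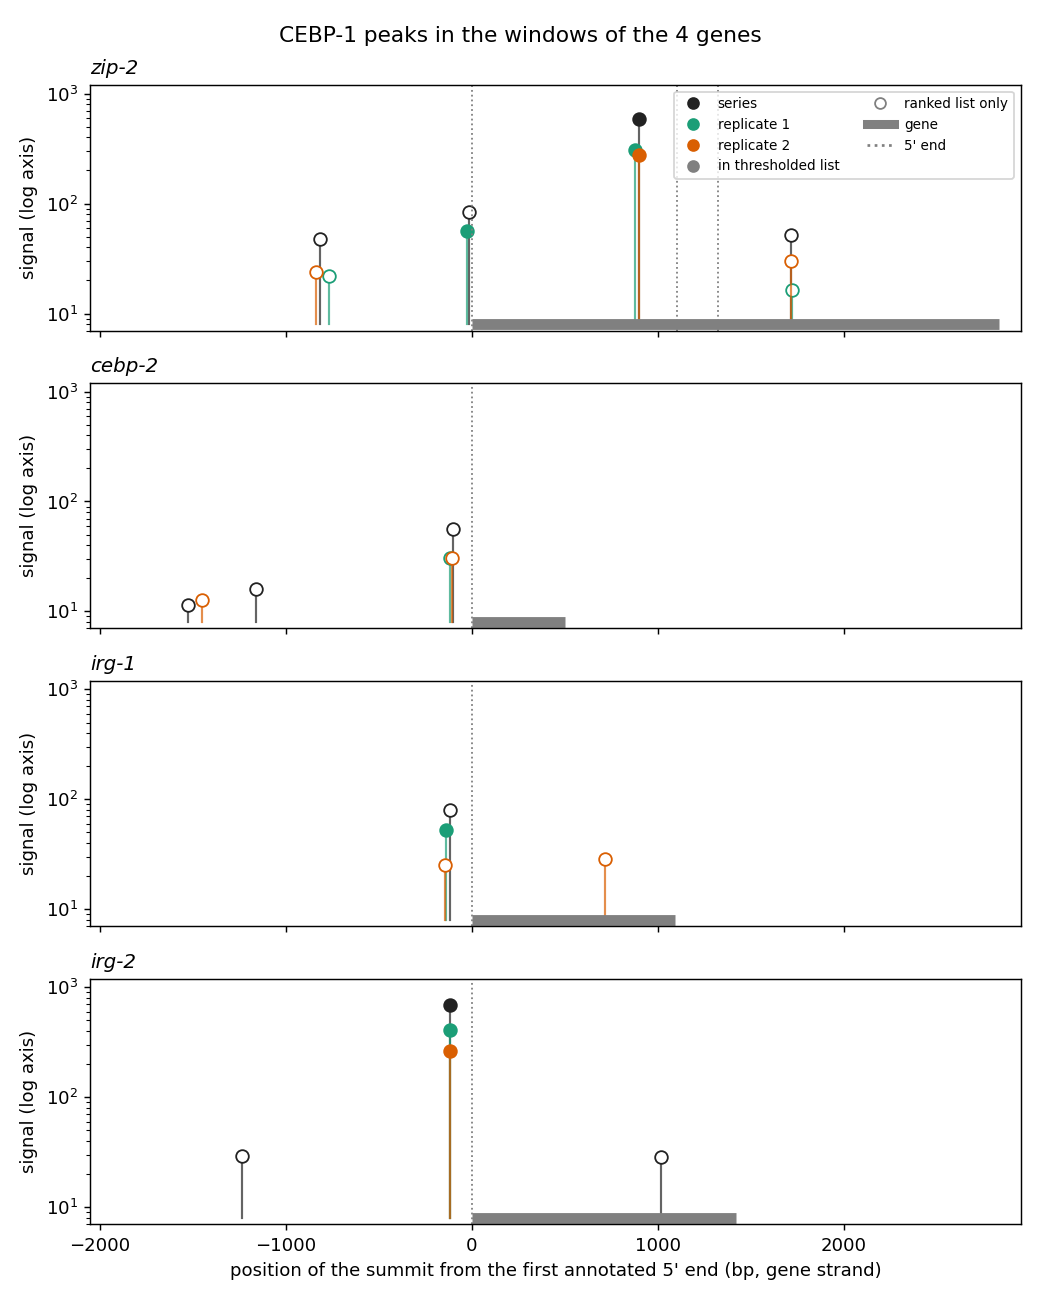
Signal of each ranked peak (log axis) against the position of its summit from the first annotated 5′ end of each gene in bp, in the ranked list behind the conservative series list (black) and in each replicate (colours), with filled points for peaks that also passed the threshold of their list. The zip-2 intronic peak reached 591.6 and the irg-2 upstream peak 685.8 in the series, against 80.5 at irg-1 and 56.6 at cebp-2.

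The partner of ZIP-2, cebp-2 (WBGene00016754), is a short gene on the plus strand of chromosome I from 6253082 to 6253584, with 1 annotated 5′ end. Its strongest ranked peak had a signal of 56.6 in the series, 30.4 in replicate 1 and 30.5 in replicate 2. The replicate mean was 30.5 ± 0.0721 (SD, n = 2), so the replicates gave nearly the same low value. The series summit lay 100 bp upstream of the 5′ end, and the summits of the replicates were 7 bp apart. It stood 3970th of 50793 ranked peaks in the series with a global IDR of 0.0530, 4393rd in replicate 1 with 0.277 and 4811th in replicate 2 with 0.836. The peak was therefore placed at the same spot in all lists and met the threshold in none of them. The nearest conservative summit was 12049 bp from the cebp-2 5′ end. The interval also overlaps the annotated end of cof-2, the gene just upstream, and the 5′ end of lpd-2, which encodes another C/EBP-type protein, was 719 bp away from the summit.

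Among the readout genes, irg-2 (WBGene00016783) lies on the plus strand of chromosome V from 4042181 to 4043601. Its upstream peak had a signal of 685.8 in the series, 408.2 in replicate 1 and 263.1 in replicate 2. This placed it 35th of 1546 conservative peaks, 32nd of 1488 in replicate 1 and 41st of 797 in replicate 2. The replicate mean was 336 ± 102.6 (SD, n = 2), a larger SD of signal than at zip-2. By rank in the ranked lists of replicates 1 and 2 the spread was not wider, with 33 and 45 at irg-2 and 52 and 35 at zip-2. The summit lay 116 bp upstream of irg-2 in the series list, and the summits of both replicates were 1 bp apart. The global IDR was 1e-05 in all 4 lists.

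The irg-2 peak cannot be given to irg-2 alone. C49G7.10 starts at 4042021 on the minus strand, the 5′ ends of the pair are 160 bp apart, and the summit was 44 bp upstream of C49G7.10. Such a position is not rare in these data, since 176 of the 1546 conservative summits (11.4%) lay between divergent 5′ ends at most 1000 bp apart. The other irg-2 summits in the ranked series list had signals of 29.2 and 28.8, below the median of that list.

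irg-1 (WBGene00015574), the gene most used as a reporter of ZIP-2 activity, lies on the plus strand of chromosome V from 3523587 to 3524679. Its upstream peak had a signal of 80.5 in the series, 52.7 in replicate 1 and 25.5 in replicate 2. The value in replicate 1 was 2.06 times that in replicate 2, and 92.7% of the conservative peaks with a peak in each replicate had a lower ratio. The replicate mean was 39.1 ± 19.2 (SD, n = 2). The summit lay 117 bp upstream of the 5′ end in the series, 138 bp in replicate 1 and 144 bp in replicate 2.

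Whether irg-1 counted as bound depended on the list. The peak stood 1491st of 1969 in the optimal list with a global IDR of 0.00498, and 1203rd of 1488 in replicate 1 with 0.00715. In the ranked list behind the conservative list it stood 1597th with a global IDR of 0.124, and in replicate 2 it stood 9547th with 0.920. The optimal list held 545 peaks (27.7%) that overlapped no conservative peak, and their median rank was 1585, so the irg-1 peak was of ordinary strength among them. In replicate 2 the strongest summit in the irg-1 window was not the upstream one but a coding-exon summit 717 bp into the gene, with a signal of 28.9. The upstream interval also overlaps the end of an annotated pseudogene on the minus strand.

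**Figure D2:**
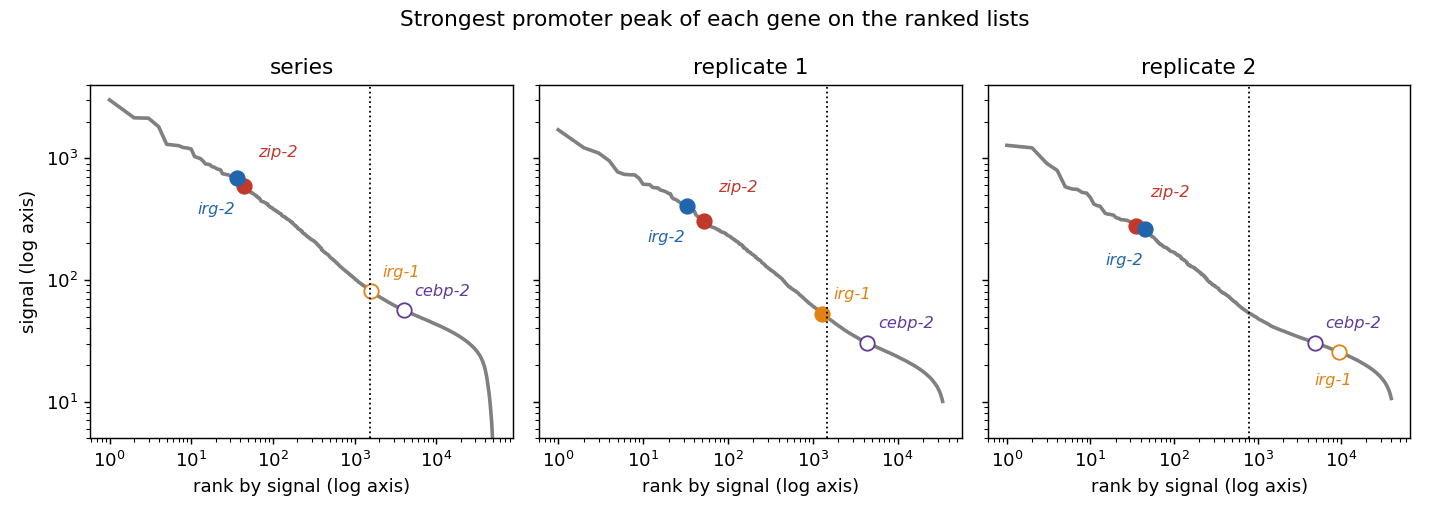
Signal against rank (both log axes) for all ranked peaks behind the conservative series list and for each replicate (grey lines), with the strongest peak upstream of a 5′ end of each gene as a point, filled where it passed the threshold of that list; the dotted line marks the number of thresholded peaks. zip-2 and irg-2 stood between rank 33 and rank 52 in all 3 lists, whereas irg-1 stood at rank 1302 in replicate 1 and at rank 9547 in replicate 2.

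The order of the 4 genes was taken from the strongest ranked peak in each window. In the series, irg-2 was highest, with 48 of the 19973 genes at or above its value (0.240%), followed by zip-2 with 57 (0.285%), irg-1 with 1673 (8.38%) and cebp-2 with 3620 (18.1%). In replicate 1 these counts were 48 for irg-2, 68 for zip-2, 1433 for irg-1 and 3890 for cebp-2, which is the same order. In replicate 2 they were 42 for zip-2, 56 for irg-2, 4254 for cebp-2 and 5092 for irg-1, so both neighbouring pairs changed places. Neither pair of neighbours could be ordered from 2 replicates, because the replicates ranked them in opposite order. Within each replicate, zip-2 and irg-2 were both above irg-1 and cebp-2, with at least 305.5 against at most 52.7 in replicate 1 and at least 263.1 against at most 30.5 in replicate 2. With 2 replicates no test of these differences was made.

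Signal values of paired peaks were mostly higher in the list of replicate 1. Over the 1525 peak pairs the ratio of replicate 1 to replicate 2 had a median of 1.27, with quartiles of 1.02 and 1.58 and a range from the 5th to the 95th percentile of 0.755 to 2.24. The ratio was 1.11 at zip-2, 0.997 at cebp-2, 1.55 at irg-2 and 2.06 at irg-1. All 4 were inside that range. Only the irg-1 ratio was above the upper quartile, and only the cebp-2 ratio was below the lower quartile. Because cebp-2 and irg-1 were not in the conservative list, their ratios are set beside those of stronger peaks.

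**Figure D3:**
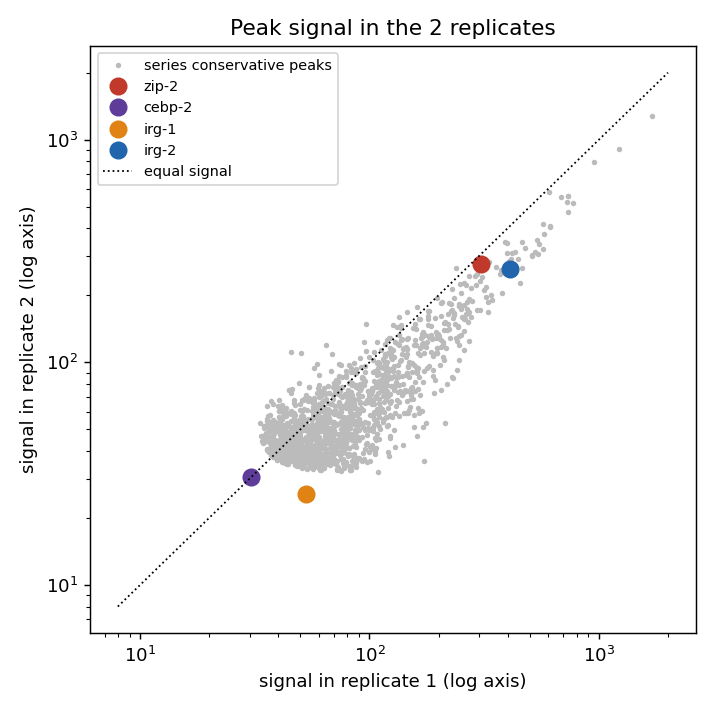
Signal in replicate 1 against signal in replicate 2 (log axes) for 1525 conservative series peaks (grey) and for the strongest upstream peak of each of the 4 genes (colours), with the dotted line at equal signal. zip-2 (305.5 and 276.2) and irg-2 (408.2 and 263.1) sit within the upper arm of the cloud, and cebp-2 (30.4 and 30.5) and irg-1 (52.7 and 25.5) lie at or below its lower edge.

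The strongest peaks of zip-2 and irg-2 differed in the sequence words near their summits. TTGCGAAA was chosen with earlier results of these data known, so its shares at these summits are descriptions only. The word TTGCGAAA was present within 100 bp of 442 of the 1546 conservative summits (28.6%, 95% Wilson interval 26.4 to 30.9%, which covers counting error only), and in 2.41% of the 201 bp windows just upstream of the first 5′ end of the 19973 genes. irg-2 held 1 copy, on the minus strand at 4042050 to 4042057, with its centre 11.5 bp from the summit. irg-1 also held 1 copy, on the minus strand at 3523487 to 3523494, with its centre 20.5 bp from the summit. The word was therefore shared by the 2 infection response genes although their signals were 685.8 and 80.5.

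zip-2 held no TTGCGAAA within 100 bp of its intronic summit. Of the 50 strongest conservative peaks, 42 held the word and 8, zip-2 among them, did not. Among the 1104 conservative peaks without the word, zip-2 was the 5th strongest, against a median of 103 for that class. irg-2 was 33rd of the 442 peaks with the word, whose median was 184.

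Words that differ from TTGCGAAA at 1 base were present at zip-2, with positions counted from 1 at the 5′ end of that word. TTGCCAAA, the change G5C, was centred 30.5 bp downstream of the summit at 833907 to 833914. TTGCGACA, the change A7C, was centred 35.5 bp upstream at 833841 to 833848. TTGCCAAA occurred at 1.10% of conservative summits and in 1.96% of the gene-start windows, and TTGCGACA at 0.259% and 0.350%, so neither was more frequent at summits. At least 1 word within 1 base of TTGCGAAA was found at 55.0% of conservative summits and in 30.2% of the gene-start windows. These shares include TTGCGAAA itself, so they do not show an excess of the words that differ from it.

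The looser pattern TTGCNNAA matched at 39.7% of conservative summits and in 18.8% of gene-start windows. zip-2 had 2 matches at its intronic summit, TTGCCAAA and, on the minus strand at 833917 to 833924, TTGCACAA. The weaker zip-2 peak at the first 5′ end had TTGCACAA at 832909 to 832916 and TTGCATCA at 832919 to 832926, both on the plus strand and both upstream of its summit. TTGCATCA, a word bound by some bZIP dimers, occurred at 1.81% of conservative summits and in 0.811% of gene-start windows. The C/EBP and PAR bZIP consensus, the AP-1 site TGACTCA and the E-box CACGTG were absent within 100 bp of the strongest summit of all 4 genes, and cebp-2 held no match to any of the 6 patterns searched. Each pattern was searched on both strands. TTGCNNAA includes TTGCGAAA, which was held by 442 of the 614 summit windows and 481 of the 3758 gene-start windows that matched TTGCNNAA. The TTGCNNAA shares therefore do not show an excess of the forms present at zip-2, which are other than TTGCGAAA.

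The conservative peaks next to zip-2 in rank were described for comparison, with no claim of shared control. Those above it were at ikke-1 (signal 612.8), rpl-3, which encodes a ribosomal protein (612.2), and gldi-2 (594.1). Those below it were at mel-46 (581.9), near lgg-1, which encodes an autophagy ubiquitin-like protein (576.3), and at tasp-1 (551.3). The lgg-1 peak is named by the nearest 5′ end only, since its summit lay downstream of the gene, 853 bp from that 5′ end. Of these 6 peaks, those named for gldi-2, mel-46 and lgg-1 held TTGCGAAA, and those at ikke-1, rpl-3 and tasp-1 did not, as at zip-2. Next to irg-2 were C14B1.3 (693.6), dyci-1, which encodes a dynein intermediate chain (692.5), and arp-1 (687.4) above, and F53B2.8 (678.7), C01A2.4 (641.6) and pdi-6, which encodes a protein disulfide isomerase (614.7), below. All 6 of these peaks held TTGCGAAA, as at irg-2.

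There are 8 genes whose symbol begins with irg. irg-2 was the only one of them with a conservative summit in its window, which makes 12.5% of the list, against 7.62% of all genes. irg-1 joined it in the optimal list, which makes 25%, against 9.49% of all genes, and also in replicate 1. Shares of so short a list change by 1 gene at a time, and no difference from all genes is read from them. The strongest ranked signals of the rest in the series were 55.1 at irg-8, 48.1 at irg-7, 44.1 at irg-3, 40.7 at irg-4 and 24.6 at irg-6, and irg-5 had no ranked summit in any list. The median of the 7 genes with a ranked summit was 48.1, near the 42.2 of all genes.

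Of 38 genes that regulate surveillance and immune responses, zip-2 and cebp-2 included, 16 (42.1%) had a conservative summit in their window, against 7.62% of all genes. The median of the strongest ranked signals over the 38 genes was 77.4, against 42.2 over all genes with a ranked summit. The list was chosen with earlier results of these data known, so no enrichment is read from these values. With the promoter alone (1000 bp upstream to 200 bp downstream of a 5′ end), 13 of the 38 were covered, against 5.06% of all genes. By the strongest ranked signal in the gene window, not in the promoter alone, zip-2 ranked 4th among the 38 regulators in the series. Above it were nipi-3, which encodes a Tribbles pseudokinase that restrains CEBP-1 (3014), and xbp-1, the transcription factor of the unfolded protein response (1301). The cebp-1 gene itself (1267) was also above it. Below zip-2 came hsf-1, the heat shock factor (418.6), vhp-1, a MAP kinase phosphatase (277.4), and skn-1, the regulator of detoxification genes (208.6).

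The remaining covered regulators were weaker than zip-2 in the series. Other bZIP genes were zip-5 (154.5), atfs-1 of the mitochondrial unfolded protein response (111.5), zip-3 (91.2) and zip-4, whose conservative peak had a signal of 85.2. Nuclear receptor genes were nhr-8 (148.4) and nhr-86 (126.4). The last 3 were daf-16, the FOXO factor (100.2), hlh-30, the TFEB homologue (98.6), and tir-1, an adaptor upstream of the p38 kinase cascade (92.4). The p38 kinase gene pmk-1 (28.3) and the intestinal GATA factor gene elt-2 (33.9) had no thresholded summit in any list, and nor did cebp-2.

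The replicates differed in how many regulators they covered. Replicate 1 covered 18 of the 38 and replicate 2 covered 8, and all 8 were among the 18. The 8 were zip-2, cebp-1, nipi-3, skn-1, xbp-1, hsf-1, nhr-86 and vhp-1. Over all protein-coding genes, 781 were covered in both replicates, 821 in replicate 1 alone and 114 in replicate 2 alone, so the shorter list of replicate 2 runs through all such counts. zip-2 is in the group that both replicates listed.

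**Figure D4:**
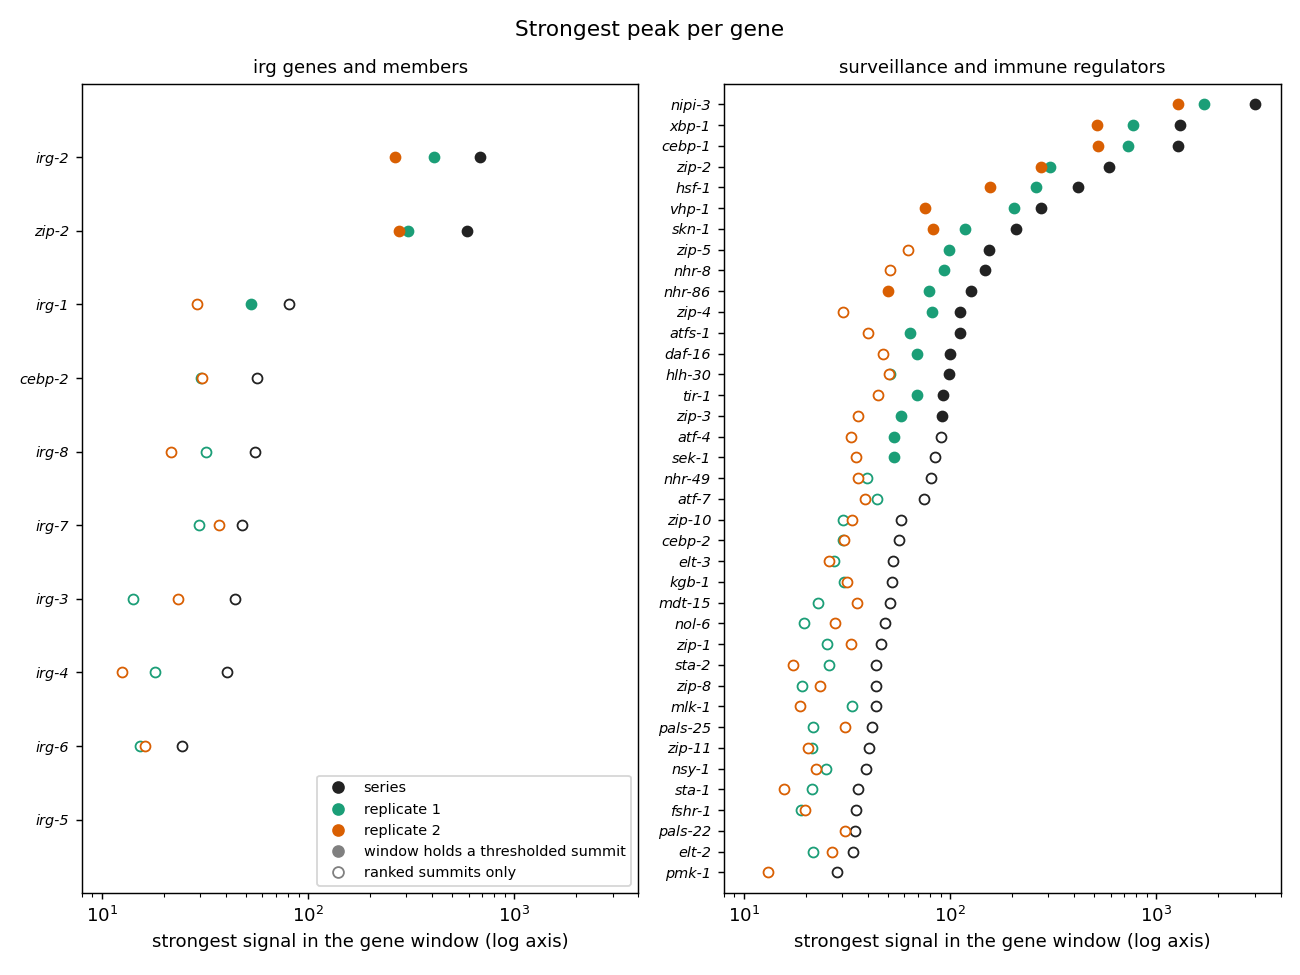
Strongest ranked signal in the gene window (log axis) for the irg genes with zip-2 and cebp-2 (left) and for 38 surveillance and immune regulators (right), in the series (black) and in each replicate (colours), with filled points where the window held a thresholded summit in the conservative list or in that replicate. irg-2 (685.8) stood apart from the other irg genes, of which irg-1 had the next highest value (80.5), and zip-2 (591.6) was 4th among the regulators.

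Of 20 effectors of the response to bacteria and toxins, 2 (10%) had a conservative summit in their window, against 7.62% of all genes, namely hsp-60, a mitochondrial chaperonin (161.2), and clec-60, a C-type lectin (100.3). The optimal list added hsp-6, the mitochondrial HSP70, which makes 15%, against 9.49% of all genes. Replicate 1 covered hsp-60, hsp-6 and tsp-1, a tetraspanin (15%, against 8.02%), and replicate 2 covered hsp-60 alone (5%, against 4.48%). In the ranked list behind the conservative list, the median of the strongest signals was 34.2 over the 17 effectors with a ranked summit. All genes had a median of 42.2 there. The direction was not the same in every list. The effector median was 40.9 against 42.1 in the optimal list, 29.9 against 23.4 in replicate 1 and 24.5 against 24.7 in replicate 2.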

How the data were processed

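CEBP-1 ChIP-seq of 2 biological replicates of young adult C. elegans was deposited as IDR ranked and thresholded peak lists on assembly ce11. Per the notes deposited beside them, the lists derive from alignments of the replicate and of a control. The sources used here do not name the peak caller. The deposited score column holds whole numbers up to 1000, with 830 the lowest score in each thresholded list, which stands for a global IDR of 0.01. The authors' signal value is another score per peak, of unstated scaling. The deposited −log10 of the global IDR comes from whichever ranked list contains the thresholded peaks. A replicate's value at a gene comes from its own ranked list, so replicates are separate samples of 1 strain with a biosample each, and no test was made between them. Depth is unknown.

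Summits were joined to genes of the Ensembl annotation of WBcel235. The main count used the conservative list and windows reaching 2 kb upstream. A peak counted as found in another list with an overlap of at least 1 bp. Sequence words were searched within 100 bp of a summit in the RefSeq genome. The named genes are the 4 genes, genes sharing a window, the 3 peaks above and below zip-2 and irg-2 in rank, and covered members of 3 gene lists: irg genes, regulators and effectors. Of 21 listed effectors, 20 matched the annotation. elt-2, pmk-1 and the uncovered irg genes were named in addition, after their values were seen. The genes, words and lists were chosen with earlier results of these data known. Intervals are Wilson intervals. The scripts ran under Python 3.11.15 with pandas 2.3.3, numpy 2.4.6, matplotlib 3.10.9 and scipy 1.17.1. The joins and word search were tested on simulated data.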

Additional observations from a re-analysis of the deposited data

How the results depend on the processing

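The count of the 4 genes with a thresholded summit was 2 in the conservative list, at a global IDR of at most 0.001, with an upstream reach of 1 or 5 kb, in promoters alone and by peak overlap, and it was 3 in the optimal list. Leaving out a replicate meant using the other replicate's own list, so these values repeat the replicate counts given above. It gave 2 to 3 of the 4 genes, and irg-1 was the gene that changed. The irg genes counted 2 in the optimal list, 2 at 5 kb, where irg-8 was added by a summit 4466 bp upstream, and 1 to 2 when either replicate was left out. Regulators counted 10 at an IDR of at most 0.001 and 8 to 18 with 1 replicate left out, and effectors 1 and 1 to 3. The share of all genes was 4.64% at an IDR of at most 0.001, 4.48% to 8.02% with 1 replicate left out, 11.6% at 5 kb and 5.06% in promoters alone. Fewer peaks are listed at the stricter IDR and in replicate 2. Without replicate 1, the strongest irg-1 summit was the one 717 bp into the gene. Of 80 alternative values for 18 results, 27 moved, that irg-1 position included, and 53 did not. No paired analysis was possible because there was 1 group. Depth is unknown, so its effect on the weak peaks at irg-1 and cebp-2 could not be assessed.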
